A study of Mus musculus with 3 samples.

Results

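The genes that encode the subunits and helper factors of the proteasome were followed in the chromatin of aged blood stem cells. Members were all protein-coding mouse genes whose symbol begins with Psm, a letter from a to g and a number, which gave 50 of 21938 coding genes. A class could be given to 48 of them: 14 constitutive subunits of the 20S core, 3 immune subunits, 2 tissue-restricted subunits, 17 subunits of the 19S regulatory particle, 7 assembly factors and 5 other activators or inhibitors. Psmc3ip, a recombination factor, and Psme2b were matched by symbol only. The rule itself used names only.

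The proteasome is the protease that degrades most proteins tagged with ubiquitin. Its 20S core is a barrel of alpha rings around beta rings, and the cutting sites lie on the beta subunits Psmb5, Psmb6 and Psmb7. The 19S particle caps the core, binds ubiquitin, unfolds the substrate with its ATPases and feeds it inward. Interferon exchanges the catalytic subunits for Psmb8, Psmb9 and Psmb10, which makes the immunoproteasome and shifts the peptides offered to MHC class I. In blood stem cells, protein synthesis is low and protein quality is held under close control.

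The cells, 1 pool of long-term hematopoietic stem cells (LT-HSCs), came from bone marrow of C57BL/6 females that were wild-type and 24 months old, and were gated as LSK CD150+CD48-CD34-. DOGMA-seq measures chromatin accessibility (ATAC), transcripts and surface antibody tags in each cell, which gave 3 libraries. There was no replicate, so no test was run, and every interval is an exact 95% interval that covers counting error only. In the study's gates, PLT-HSCs (platelet-biased) carry much CD61 and CD274 (PD-L1) and little CD27 and CD357, and MUL-HSCs (multi-lineage) the reverse.

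The ATAC file held 43705382 fragments, and its 4369 called cells included all 3724 barcodes with antibody counts. At least 10 tags were found in 3629 cells, which held 38498362 nuclear fragments, with a median of 10287 per cell (3853 to 45069), 1978 RNA UMIs and 29 tags. Of the stem cell markers, the Kit and Hlf promoters stood at 43.7 and 33.2 FPM (fragments at the promoter per 1000000 nuclear fragments), and the 4 myeloid marker promoters at 0.286 to 2.21. Slamf1 (CD150) and Ly6a (Sca-1), whose proteins the gate requires, were at 4.29 and 2.99, below the median of all coding promoters. The RNA matrix was not analysed here, so promoter values are given with no transcript level beside them.

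The stretch free of annotated exons within 250 bases before the RefSeq start is shown for Psmb10, for Psmb5 and Psmb6 as constitutive catalytic genes, and for Psme2, the member with the highest level. Sequences are from RefSeq (GRCm38.p6), and capitals mark the motifs searched: an E-box (CACGTG) in Psmb10, an antioxidant response element (TGACNNNGC) in Psmb5, and a GC box (GGGCGG, on the other strand) in Psmb6 and Psme2.
Psmb10, chr8:105938445-105938642, minus strand: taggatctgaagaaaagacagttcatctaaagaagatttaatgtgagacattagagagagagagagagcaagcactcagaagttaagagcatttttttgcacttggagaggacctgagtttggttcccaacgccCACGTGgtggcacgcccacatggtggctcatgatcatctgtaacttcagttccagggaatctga
Psmb5, chr14:54618023-54618245, minus strand: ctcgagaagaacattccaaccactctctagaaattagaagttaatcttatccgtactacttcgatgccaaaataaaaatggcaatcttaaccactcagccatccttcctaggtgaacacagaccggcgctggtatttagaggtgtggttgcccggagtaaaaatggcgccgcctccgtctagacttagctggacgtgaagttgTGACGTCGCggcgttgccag
Psmb6, chr11:70525107-70525323, plus strand: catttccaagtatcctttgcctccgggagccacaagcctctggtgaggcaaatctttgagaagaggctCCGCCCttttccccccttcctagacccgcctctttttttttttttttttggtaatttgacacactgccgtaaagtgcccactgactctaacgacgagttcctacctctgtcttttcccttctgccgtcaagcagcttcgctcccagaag
Psme2, chr14:55591114-55591351, minus strand: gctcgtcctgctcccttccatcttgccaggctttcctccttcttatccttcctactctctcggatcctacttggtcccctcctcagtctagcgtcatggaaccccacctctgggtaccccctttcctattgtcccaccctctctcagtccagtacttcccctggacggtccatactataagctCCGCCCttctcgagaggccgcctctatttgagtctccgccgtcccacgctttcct

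The Psmb10 promoter was poor in CpG near its RefSeq start. Over the 300 bases around its start, its observed CpG count was 0.192 of that expected from base content, against 0.999 at Psmb5 and 0.727 at Psmb6. Psmb8 and Psmb9 lay between, at 0.523 and 0.600. Psmb11 at 0.165 and Psme2b at 0.0904 were lower than Psmb10. Transposase insertions at Psmb10 were most frequent 225 bp downstream of the RefSeq start, outside these bases and outside the stretch shown above. The Psmb10 value therefore does not describe the sequence at its most open site. At Psmb8 that site also lay outside, 125 bp downstream. Across the 42 members with a RefSeq promoter the median was 0.749, close to 0.758 for promoters of genes with at least 200 fragments and above 0.384 for all 32851 promoters of the table. The median GC content of the members was 58.2%, against 61.3% and 52.7% in those sets. Psma8, Psmb1, Psmb2, Psmb7, Psmc3, Psmd3, Psmd7 and Psmg2 had no promoter entry.

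An ETS motif (CCGGAAG, either strand, as for all motifs here) was found in 9 of 14 promoters of 19S genes, in 1 of 11 of constitutive 20S genes (Psma6), in none of 3 immune genes, in 2 of 6 assembly genes and in 2 of 5 activator or inhibitor genes. Over all members it was held by 15 of 42 promoters (35.7%), beside 8.86% of all promoters and 16.8% of those of genes with at least 200 fragments. The 19S matches were in the ATPase genes Psmc1, Psmc2 and Psmc6 and in the lid or base genes Psmd2, Psmd4, Psmd6, Psmd11, Psmd12 and Psmd13. Shown are 30 bases around each match on the strand of the gene, with the motif in capitals.
Psmc1, chr12:100110163-100110192, plus strand: tggtggatgcaCTTCCGGcggtggcgattt
Psmc2, chr5:21785180-21785209, plus strand: accagtgagcaCTTCCGGgatggggctcgc
Psmc6, chr14:45329713-45329742, plus strand: aggcgggccagCCGGAAGgggcggagccag
Psmd11, chr11:80428593-80428622, plus strand: cgagggcgggtCTTCCGGgtgtgtgtttcc
Psmd12, chr11:107479500-107479529, plus strand: tgagcgggcgaCTTCCGGtgcgagtgacga
Psmd13, chr7:140882377-140882406, plus strand: cgcccgcggtgCCGGAAGtgagcgagcact
Psmd2, chr16:20651615-20651644, plus strand: tccgcagggcgCTTCCGGtctggaggacaa
Psmd4, chr3:95042721-95042750, minus strand: ttacagctgttCCGGAAGctgctgcgaagg
Psmd6, chr14:14120972-14121001, minus strand: cagagacgcgaCCGGAAGtcagactggcgg

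The antioxidant response element, the site of the factor Nfe2l1 that drives proteasome genes when the protease is blocked, was about as frequent as elsewhere. It lay in 6 of 42 member promoters (14.3%), beside 12.4% of all promoters and 14.4% of those of genes with at least 200 fragments. The 6 were Psmb5, Psmb6, Psmc6, Psmd12, Psmd9 and Psme4. A CCAAT box (CCAAT) was in 14 members (33.3%, against 37.4% of all promoters and 37.2% of those of genes with at least 200 fragments) and a GC box in 23 (54.8%, against 35.7% and 64.3% of these sets, in that order from here on). An interferon response element (GAAANNGAA) was in 6 (14.3%, against 8.56% and 6.78%), among them Psme1 but no immune subunit. A gamma-activated site (TTCNNNGAA) was in 3 (7.14%, against 8.30% and 6.49%), of which Psmb8 was the immune one. An E-box was in 4 (9.52%, against 7.15% and 9.99%), a YY1 motif (AAGATGGC) in 3 (7.14%, against 2.75% and 4.17%), a nuclear respiratory factor motif (GCGCATGCG) in 2 (4.76%, against 1.75% and 3.57%), and a CRE (TGACGTCA) in 0, against 1.79% and 3.15%. A match is a run of letters in a 300-base window and no measure of binding. The interferon-related matches in Psmb8 and Psme1 and the CCAAT box of Psmb9, which lies on the other strand, are shown in 30 bases each, with the match in capitals.
Psmb8, chr17:34198088-34198117, plus strand: tcctccgctgTTCCCAGAAgatgccccccc
Psmb9, chr17:34187321-34187350, minus strand: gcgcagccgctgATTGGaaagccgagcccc
Psme1, chr14:55578494-55578523, plus strand: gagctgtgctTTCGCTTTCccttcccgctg

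Nearly all proteasome promoters were open. Levels are fragments that overlap the 1 kb on each side of the gene start, in FPM, a window of the same length for every gene. The median member stood at 31.6 FPM, against 9.92 for all coding promoters, and 43 of 50 members were above that coding median. Above the 75th percentile of coding promoters (29.9 FPM) were 28 members, and above the 90th (49.2) were 5. Ribosomal protein genes, taken as the 98 symbols of Rpl or Rps followed by a number, had a median of 35.2 (0.0260 to 76.7). That name rule can take in genes of other kinds. Olfactory receptor genes, which blood cells keep shut, had a median of 0.0260. All members together held 57851 fragments, 0.150% of the nuclear total, a median of 15 per cell.

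**Figure D1:**
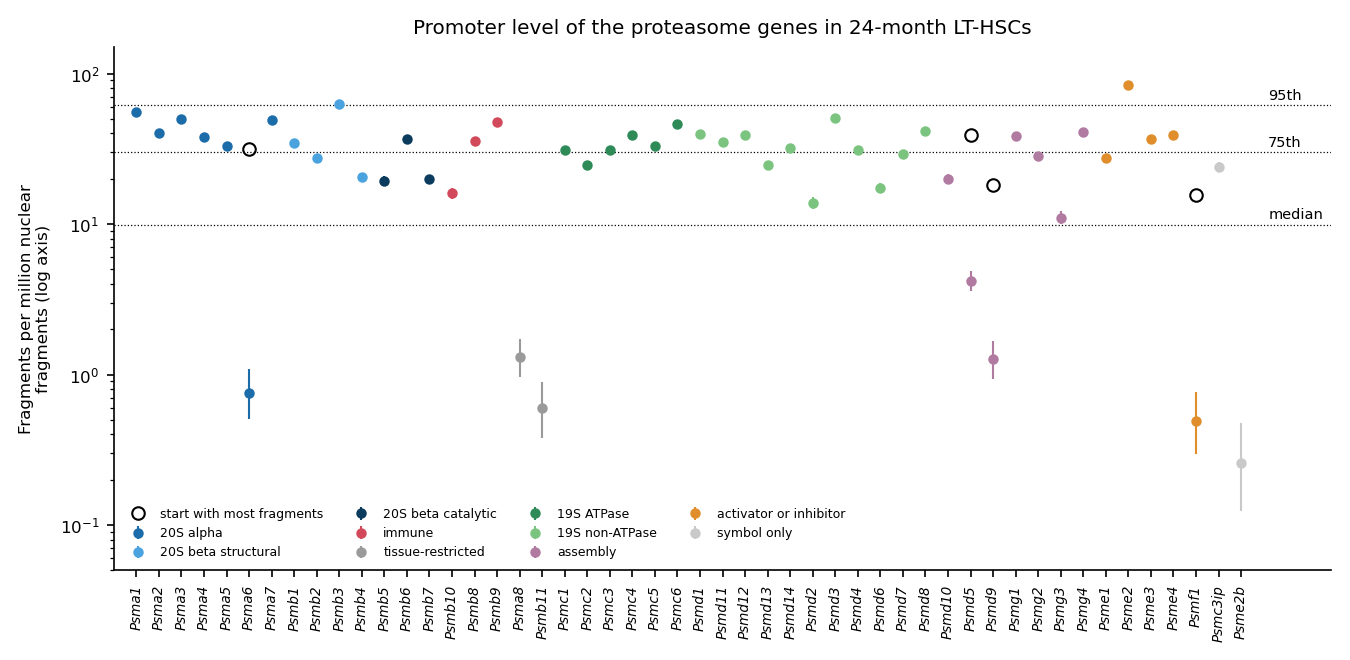
Promoter level of each of the 50 proteasome genes, in FPM on a log axis, with exact 95% Poisson intervals and colour by class. Dotted lines are the median, 75th and 95th percentiles of all coding promoters, and open circles give the level at the transcript start with most fragments for the 4 genes whose gene start was near closed.

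In the 20S core, the alpha subunits had a median of 40.1 FPM and the catalytic beta subunits one of 19.8. The highest core genes were Psmb3, a structural beta subunit, at 63.1 (60.6 to 65.7), Psma1 at 55.2 (52.9 to 57.6) and Psma3 at 49.5 (47.3 to 51.8). The lowest with an open start were the catalytic Psmb5 at 19.3 (17.9 to 20.7) and Psmb7 at 19.8 (18.4 to 21.2), whose intervals overlap. The third catalytic gene, Psmb6, was clearly above both, at 36.4 (34.6 to 38.4). A fragment at Psmb3 was seen in 45.9% of cells (44.2 to 47.5) and at Psmb5 in 17.5% (16.3 to 18.8).

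The immune subunits were open in these cells, and they spanned a wide range. Psmb9 (chr17:34181987-34187764, minus strand) stood at 48.0 FPM (45.8 to 50.2), Psmb8 (chr17:34197721-34201454, plus strand) at 35.5 (33.6 to 37.4) and Psmb10 (chr8:105935735-105938444, minus strand) at 16.0 (14.8 to 17.3). The 3 intervals do not overlap. Psmb9 and Psmb8 were above their constitutive counterparts Psmb6 and Psmb5, while Psmb10 was below Psmb7. The mean of the 3 immune promoters was 33.1, against 34.8 for the 14 constitutive core promoters. The start of Tap1, the peptide transporter gene, lies 211 bp inside the Psmb9 start on the opposite strand, and the Tap1 window held 48.0 FPM, so the fragments of the pair cannot be told apart. A fragment was found in 37.3% of cells at Psmb9, 29.2% at Psmb8 and 14.2% at Psmb10.

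The tissue-restricted members were near closed. Psma8, the testis alpha subunit, held 50 fragments, 1.30 FPM (0.964 to 1.71), and Psmb11, the thymus beta subunit, held 23, 0.597 FPM (0.379 to 0.896). Fragments were seen in 1.32% and 0.551% of cells there, against a median of 0.0276% over the 1135 olfactory receptor promoters. The RefSeq start of Psmb11 lies 3877 bp downstream of the gene start, and the level there was not measured. Psme2b was lower again, with 10 fragments.

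All 17 genes of the 19S were above the coding median, with levels between 13.8 and 50.7 FPM. The highest were Psmd3 at 50.7 (48.4 to 53.0), the ATPase gene Psmc6 at 46.2 (44.0 to 48.4) and Psmd8 at 41.4 (39.4 to 43.5). The lowest were Psmd2, a large scaffold of the base, at 13.8 (12.6 to 15.0), Psmd6 at 17.2 (16.0 to 18.6) and Psmc2 at 24.6 (23.0 to 26.2). The group median was 32.1, against 35.6 for the constitutive core.

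Psme2, a subunit of the interferon-inducible PA28 activator, had the highest promoter of all members at 83.7 FPM (80.8 to 86.6), the 98.6th percentile of coding promoters. A fragment there was seen in 54.6% of cells (53.0 to 56.2). Its partner Psme1, which lies close by on the same chromosome, was at 27.6 (25.9 to 29.3). The start of the ubiquitin ligase gene Rnf31 lies 595 bp upstream of Psme2 on the opposite strand and falls in its window. The nuclear PA28 gene Psme3 was at 36.6 (34.7 to 38.5) and Psme4, the PA200 activator, at 38.8 (36.9 to 40.8). Psmf1, the inhibitor PI31, was at 0.494 (0.297 to 0.771) at its gene start.

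Among the assembly factors, Psmg4 (41.1, 39.1 to 43.2), Psmg1 (38.6, 36.7 to 40.6) and Psmg2 (28.4, 26.8 to 30.2), chaperones of the alpha ring, were the highest. Psmg3 was lower, at 11.0 (10.0 to 12.1), and Psmd10, a chaperone of the base, held 769 fragments (18.6 to 21.4 FPM). Psmd5 and Psmd9, other chaperones of the base, were at 4.21 (3.58 to 4.91) and 1.27 (0.942 to 1.68).

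For 4 members the low value belongs to the annotated gene start and not to the gene. At Psma6, Psmf1, Psmd9 and Psmd5 another transcript start more than 1 kb away held far more fragments: 1218 against 29 at Psma6, 598 against 19 at Psmf1, 695 against 49 at Psmd9 and 1513 against 162 at Psmd5. Counted there, their levels were 31.6, 15.5, 18.1 and 39.3 FPM. With that start for every gene, all 14 constitutive core genes, all 17 of the 19S and all 5 activators or inhibitors were above the coding median of 12.2, as were 6 of 7 assembly factors, with Psmg3 at 11.1. For the tissue-restricted genes and Psme2b, no other start of a protein-coding transcript in GENCODE held more fragments. Starts of other transcript types were not counted.

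The opening lay at the annotated gene start of most members, and away from that start at the immune genes. Among members with at least 200 fragments, the 50 bp bin with most transposase insertions was within 100 bp of the gene start in 9 of 13 constitutive core genes, 16 of 17 19S genes, 4 of 5 assembly genes and 3 of 4 activators, against 55.7% of all coding promoters of that depth. It was so in none of the 3 immune genes, where the bin was centred 325 bp downstream at Psmb9, 325 bp at Psmb10 and 575 bp at Psmb8. The Tap1 start lies 211 bp inside the Psmb9 start, so the bin at Psmb9 cannot be assigned to either gene. Within 250 bp of the gene start lay 50.7% of the window's fragments at Psmb9, 49.8% at Psmb10 and 61.0% at Psmb8, against medians of 83.8% in the constitutive core, 81.6% in the 19S and 73.5% in all coding promoters of that depth. At Psme1 the share was 35.5%, the lowest of these members, with its highest bin 325 bp downstream.

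**Figure D2:**
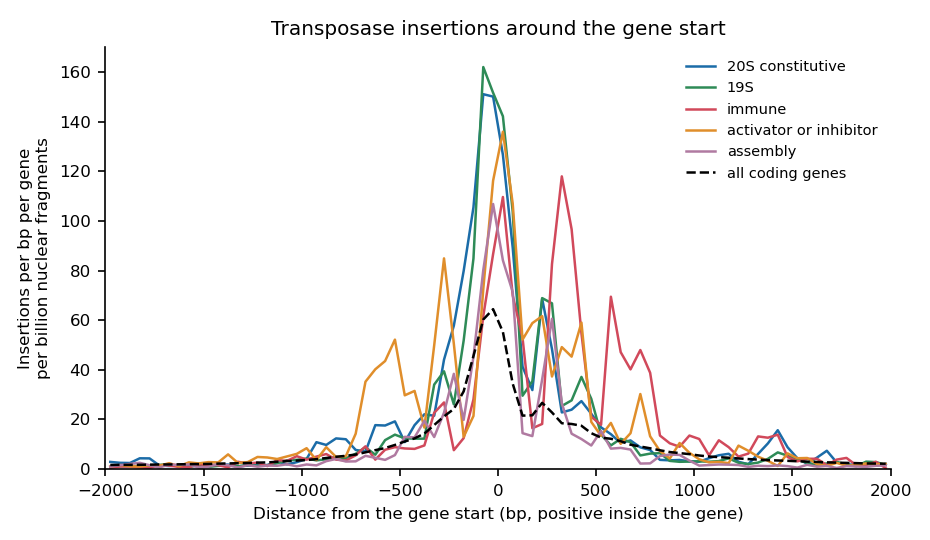
Transposase insertions per bp per gene, scaled to nuclear fragments, by distance from the gene start in 50 bp bins, as the mean over the genes of each group and over all coding genes (dashed). The core and 19S lines are highest just upstream of the start, and the immune line has its highest bin 325 bp inside the gene with lower peaks at the start and near 575 bp. The immune line includes the window that Psmb9 shares with Tap1.

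The distance depends on the annotation used. The RefSeq starts of Psmb8, Psmb9 and Psme1 lie 474, 434 and 371 bp inside the GENCODE gene starts, and that of Psmb10 lies 52 bp inside. Measured from the RefSeq start, the highest bin was at -125 bp for Psmb9, 125 bp for Psmb8, 225 bp for Psmb10 and -25 bp for Psme1. Insertions within 250 bp of the start rose from 1168 to 1736 at Psmb9, from 407 to 545 at Psmb10 and from 475 to 1363 at Psme1 when the RefSeq start was used, and fell from 1104 to 962 at Psmb8. The immune mean there was 1081, against 1990 for the 10 constitutive core genes with a RefSeq start in reach. The highest bin of Psmb8 and Psmb10 lay inside the gene under either annotation.

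The window decided how the immune genes ranked. The log2 ratio of the immune mean to the constitutive core mean was -0.07 with 1 kb on each side, -0.25 with 500 bp and -0.66 with 250 bp. At 250 bp, Psmb9 was at 24.3 FPM and Psmb6 at 33.9, the reverse of their order in the wide window. Psmb8 stayed above Psmb5 at 250 bp, with 21.6 against 16.0.

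Fragments at the immune promoters were also longer than at the median core or 19S promoter, which was true of some other members too. Fragments under 150 bp, too short to span a nucleosome, made up 27.8% (24.3 to 31.5) at Psmb10, 30.8% (28.3 to 33.3) at Psmb8 and 35.2% (33.0 to 37.4) at Psmb9. The median was 45.9% over the constitutive core, 43.7% over the 19S and 38.3% over all coding promoters of at least 200 fragments. The range within the core was wide, from 27.7% (24.5 to 31.1) at Psmb5 to 52.0% (49.3 to 54.6) at Psmb6, so Psmb5 was like Psmb10 in this measure. Psmb7 was at 35.2% (31.8 to 38.7), like Psmb9, and the median of the constitutive catalytic genes was 35.2%. Psmd1 (30.1%), Psmg2 (31.3%) and Psme3 (31.3%) also lay in the range of the immune genes. A low short share was thus not particular to the immune genes. Among members with at least 200 fragments, the lowest was the 19S gene Psmc5 (27.3%, 24.8 to 29.8), and the highest shares were at the 19S genes Psmc4 (59.6%, 57.1 to 62.1) and Psmd8 (58.4%, 55.9 to 60.8).

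**Figure D3:**
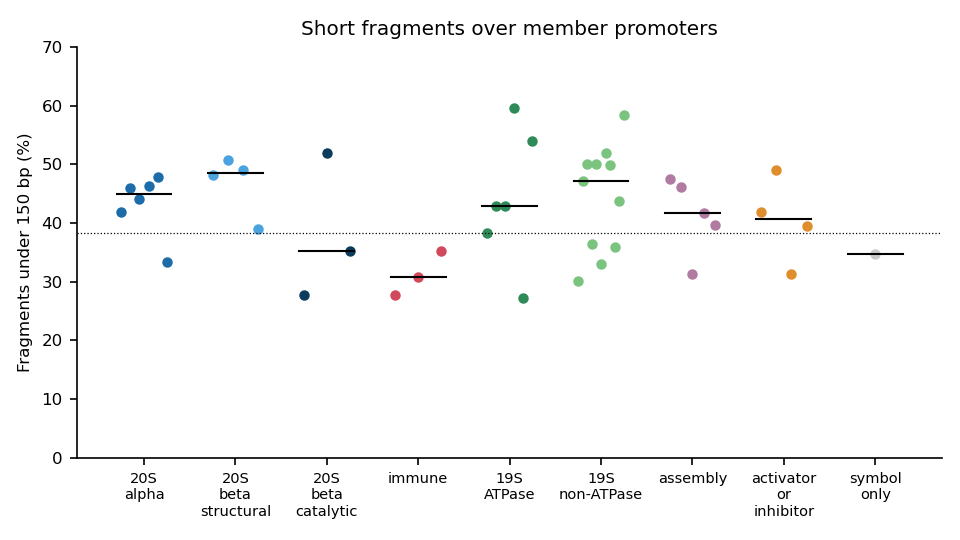
Share of fragments under 150 bp over each member promoter with at least 200 fragments, in percent, by class. Points are genes, black bars are class medians and the dotted line is the median of all coding promoters of that depth. All 3 immune genes lie below it, as do some genes of other classes.

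In single cells the promoters were sparse. A cell had a fragment at a median of 12 of the 50 members (quartiles 9 and 15), and at 8 after each cell was thinned to 6000 fragments, which left out 244 cells. The constitutive core gave a median of 5 fragments a cell and the 19S 6, and the 3 immune genes gave 1, with none in 39.4% of cells. Across the 3629 cells, the sums of the core and of the 19S had a Spearman correlation of 0.23, which was 0.03 once the ranks of nuclear and of promoter fragments were removed. For the core and the immune genes the values were 0.13 and 0.04, and for the core and ribosomal protein genes 0.35 and 0.06. The cells share 1 library, and in counts this sparse the values left after depth are weak.

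CD274, a ligand that interferon also raises, was the antibody with most tags, so cells with 27 or more tags (937 cells) were set against those with 12 or fewer (877 cells). Of 43 members with at least 200 fragments over both groups, 6 had a log2 ratio past 0.25 in size, 3 up and 3 down, beside 11.6% of all tested coding promoters. Members as a whole were level, with 15448 fragments in CD274-high and 14040 in CD274-low cells (log2 ratio -0.01, -0.04 to 0.03).

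Among the immune subunits, Psmb10 alone was past the fold. It held 197 fragments in CD274-high and 124 in CD274-low cells, which is 19.1 against 13.3 FPM (log2 ratio 0.52, 0.19 to 0.86). The 1815 cells with tag counts in between stood at 15.7, and the intervals of neighbouring groups overlap. Psmb8 was at 36.6 and 36.5 FPM (log2 ratio 0.00, -0.21 to 0.22) and Psmb9, with 486 and 442 fragments, at 47 and 47.3 (-0.01, -0.20 to 0.18). Neither differed beyond counting error. The summed immune genes had a log2 ratio of 0.08 (-0.05 to 0.21).

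The largest difference was the opposite one, at Psmd2. It held 111 fragments in CD274-high and 164 in CD274-low cells, 10.7 against 17.5 FPM, with 13.6 in the cells between (log2 ratio -0.71, -1.07 to -0.35). Psmd1, its fellow scaffold of the 19S base, was at 36.7 and 43.8 (log2 ratio -0.26, -0.46 to -0.05), and the sum of the 17 19S genes at 539 and 566 (-0.07, -0.12 to -0.02). The assembly chaperone gene Psmg2 was at 26.3 and 32.0 (-0.28, -0.52 to -0.04). Psme1 went the other way, at 30.1 and 25.1 (0.26, 0.01 to 0.51), with an interval that left out 0 in only 3 of 9 alternative settings, and the sum of the activators and inhibitor was at 191 and 177 (0.11, 0.02 to 0.21). Psmb7, the constitutive counterpart of Psmb10, was at 20.8 and 17.4 (0.25, -0.05 to 0.56).

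**Figure D4:**
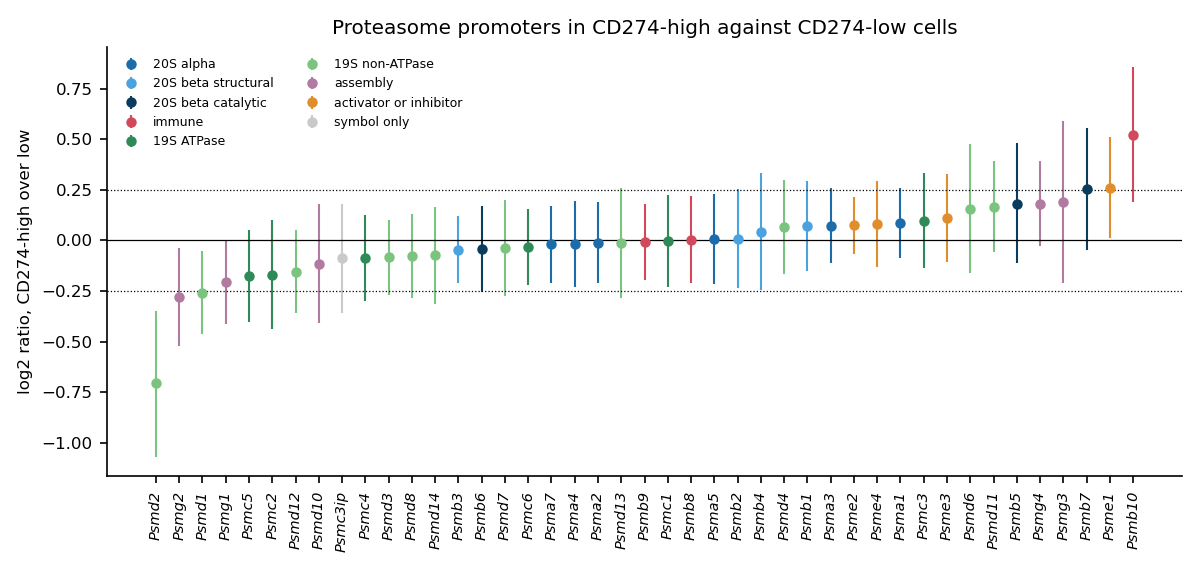
Log2 ratio of scaled fragments in CD274-high over CD274-low cells for the 43 members with at least 200 fragments over both groups, in order of size, with exact 95% conditional binomial intervals and colour by class. Dotted lines are at 0.25 in either direction; Psmd2 at -0.71 and Psmb10 at 0.52 are the ends of the order.

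Other properties of the cells moved with CD274. Cells with an excess of overlapping fragments, a possible sign of doublets, made up 13.0% of CD274-high and 6.39% of CD274-low cells. The excess was judged by a Poisson count against the mean over all kept cells. It was not corrected for depth, so a deep single cell can be flagged as well. The median share of fragments in peaks was 68.5% and 66.3%, and the median number of tags 46 and 17. Without the cells with excess overlaps, Psmb10 had a log2 ratio of 0.55 and Psmd2 of -0.55, and among the 363 cells with 50 or more tags neither had an interval that left out 0. Summed markers were at 3.97 and 4.38 FPM for the myeloid list, 18.5 and 15.1 for the B cell list and 117 and 118 for the stem cell list. The part of tag number and peak share in these ratios was not tested. Of 23 tested ubiquitin-proteasome genes, none was past the fold for CD274, beside 11.6% of all tested coding promoters. The summed list had a log2 ratio of 0.01 (-0.03 to 0.05).

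For the other PLT marker, CD61, cells with 6 or more tags (779) were set against cells with 1 or none (727). Past the fold were 4 of 42 members, beside 9.90% of all coding promoters. Of these, only Psmb2 had an interval that left out 0, with 218 and 230 fragments (log2 ratio -0.29, -0.56 to -0.01), and that interval left out 0 in 5 of 9 alternative settings. Beside it, cells with excess overlaps made up 13.6% and 5.23% of these groups, and the summed stem cell markers were at 127 and 108 FPM (0.23, 0.10 to 0.36). Their part in the result was not tested. For CD27 (825 cells with 2 or more tags against 1578 with none), 1 of 43 members was past the fold, beside 7.03%: Psmd6, with 20.3 and 15.8 FPM (0.36, 0.08 to 0.63), past the fold in 6 of 9 alternatives. Excess-overlap cells were 11.4% and 5.96% there. For CD357 (968 against 1200 cells), it was 1 of 43, beside 6.82%, and its interval held 0.

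The 4 markers were then joined in gates after the study's scheme, with cutoffs at the median tag count of each marker that were set here: 342 cells above it for CD61 and CD274 and not above it for CD27 and CD357 (PLT-gated) were set against 61 cells of the opposite kind (MUL-gated). So few cells left 7 members to compare. Psma7, an alpha subunit, held 160 and 42 fragments (log2 ratio -0.64, -1.13 to -0.10), a total of 202 that passed the minimum of 200 only through its level in the MUL gate, so its call supports no difference. Together with Psmb3 it made 2 of 7 past the fold, beside 33.9%. The summed constitutive core was at 482 and 560 FPM (-0.22, -0.38 to -0.04), while all members were at 1531 and 1566 (-0.03, -0.13 to 0.07). The start of Ss18l1 lies 76 bp upstream of Psma7 on the opposite strand. The immune sum was at 102 and 84.9 (0.25, -0.17 to 0.71). Excess-overlap cells made up 7.02% and 1.64% of the gates, with medians of 37 and 26 tags and of 68.3% and 67.1% of fragments in peaks, and their part in these ratios was not tested.

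The remaining antibodies marked few cells or few tags. For P2X7R, 1 of 43 members was past the fold, beside 5.39%: Psmb4, with 328 and 457 fragments (log2 ratio 0.27, 0.06 to 0.47). The summed B cell markers were at 20.1 and 17.0 FPM in these groups (0.24, 0.02 to 0.46). For CD201 (EPCR), it was again 1, beside 5.78%: Psmd6, with 19.5 and 16.2 (0.27, 0.03 to 0.50), past the fold in 5 of 9 alternatives. For CD106 it was 1, beside 6.90%: Psmb5, with 16.1 and 20.4 (-0.33, -0.60 to -0.08). For MERTK it was 3, beside 10.3%, and Psmb1 alone had an interval without 0, with 40.4 and 32.9 (0.30, 0.08 to 0.50). It stayed past the fold in 2 of 9 alternative settings, with an interval that left out 0 in 5. Excess-overlap cells made up between 8.67% and 11.0% of the cells with more tags for these 4 antibodies, and between 6.13% and 6.65% of those with fewer; the part of these cells and markers was not tested.

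CD68, CD183, CD206 and CD163 were found on so few cells (281, 225, 82 and 71) that many promoters passed the fold. For CD68, 7 of 43 members were past it, beside 19.8%. Psmd14, the deubiquitinase of the 19S lid, was at 23.3 and 32.8 FPM (log2 ratio -0.48, -0.86 to -0.15), Psme4 at 30.5 and 39.5 (-0.37, -0.69 to -0.07) and Psme2 at 70.9 and 84.8 (-0.25, -0.46 to -0.06). The summed myeloid markers held 6 and 156 fragments there (log2 ratio -1.05, -2.63 to -0.01), and excess-overlap cells at 10.7% and 6.99%; their part was not tested. For CD183, 6 were past it, beside 24.0%, and only Psme2 had an interval without 0, with 100.1 and 82.5 (0.28, 0.08 to 0.47). For CD206, 14 were past it, beside 44.1%. Psmb5 had 28 fragments in the marked cells (log2 ratio 0.79, 0.17 to 1.31) and Psma4 had 20 (-0.68, -1.43 to -0.08). For CD163, 21 were past it, beside 48.4%. Psmg4 was lowest at 21.5 and 41.5 (-0.90, -1.76 to -0.24). Psmc1 had a log2 ratio of -0.78 (-1.75 to -0.05) and Psmc3 one of 0.71 (0.18 to 1.16). Psmd7 was at 0.64 (0.07 to 1.12) and Psmd1 at 0.51 (0.004 to 0.94). Psmc1, Psmc3, Psmd7 and Psmd1 held 13, 37, 33 and 41 fragments in the marked cells.

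**Figure D5:**
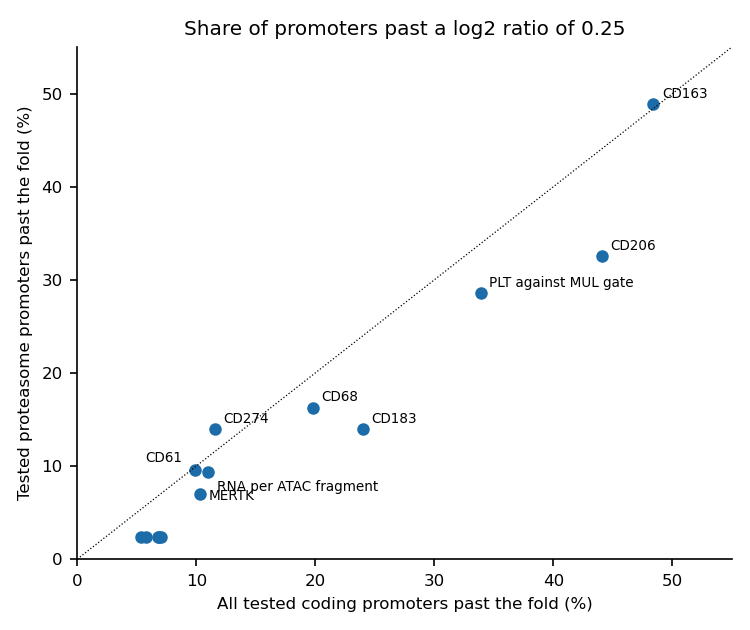
Share of tested proteasome promoters past a log2 ratio of 0.25 in size (percent, vertical) against that of all tested coding promoters (percent, horizontal), for the 14 comparisons of cells. The dotted line marks equal shares; CD274 and CD163 lie just above it and the others below it.

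Cells rich in RNA had slightly more fragments at member promoters, and so did promoters in general. The 907 cells with most RNA UMIs per ATAC fragment had 1553 member FPM and the 907 with least had 1468 (log2 ratio 0.08, 0.05 to 0.12). The median over all tested promoters was 0.06, and 4 of 43 members were past the fold, beside 11.0%. Psmc2 was at 27.5 and 21.3 (0.37, 0.10 to 0.65) and Psma3 at 54.8 and 46.0 (0.25, 0.06 to 0.44). The groups differed in depth, with medians of 7765 and 11728 fragments per cell. Excess-overlap cells, a flag not corrected for depth, made up 4.19% and 11.2% of them. The median share of fragments in peaks was 68.5% and 66.8%. The part of excess overlaps and peak share in these ratios was not tested. Scaled by promoter fragments, the ratio for all members was 0.01.

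Genes that work with the proteasome had open promoters too. Of 24 ubiquitin-proteasome genes found in the annotation, 23 were above the coding median and 16 above the 75th percentile, with a median of 36.4 FPM. Zfand5, a proteasome-binding factor, was the highest at 91.3, followed by Rad23b, a shuttle for ubiquitinated proteins, at 81.8, the ubiquitin gene Ubb at 77.8 and Nfe2l1 at 76.9. Pomp, which matures the core, was at 30.1. Usp14 held 8 fragments at its gene start and 37.1 FPM at its start with most fragments. Of genes that act in antigen presentation, Tapbp stood at 61.5, H2-K1 at 54.3 and B2m at 35.7, and Nlrc5, an activator of MHC class I genes, was at 16.0, level with Psmb10.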

How the data were processed

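The deposited values were counts with no normalization. The authors ran Cell Ranger ARC 2.0.2 on mm10 for the ATAC fragments and the barcode totals; that pipeline keeps 1 line per duplicate set, shifts fragment ends for the transposase and calls cells from both assays. Antibody counts came from CITE-seq-Count (version not stated). Cells were barcodes of the antibody table with at least 10 tags; doublets were not removed. Fragments overlapping 1 kb on each side of a gene start (GENCODE M21, coding genes) were counted per cell, summed and divided by nuclear fragments. Antibody groups were the counts nearest to the highest and lowest 25% that ties allow. A ratio had 0.5 added to each count and was called past 0.25 (log2) if both groups together held 200 fragments. Named were the catalytic, immune and tissue-restricted genes, the 3 highest and 3 lowest of each group, and called members whose interval left out 0. Such 95% intervals were looked at for every tested member in 14 comparisons, with no correction for their number. Some of them can leave out 0 by counting error alone. The members, lists and alternatives were chosen with earlier results of these data known; the RefSeq starts and the middle CD274 cells were added after seeing the data. Motifs were counted in RefSeq promoters (250 bases before to 50 after the start), taking the entry nearest to the start with most fragments; 42 members matched. Paaf1 was not matched. The antigen presentation list is not reported as a whole here. The comparison was tested on simulated data. Software was Python 3.11.15, numpy 2.4.6, scipy 1.17.1, pandas 2.3.3 and matplotlib 3.10.9.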

Additional observations from a re-analysis of the deposited data

Results flagged for a closer look

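Signal at member promoters was also present in barcodes outside the comparisons. Barcodes not called as cells held 3457 fragments there, 1237 per 1000000 of their fragments against 1503 in the kept cells. Called cells without antibody counts held 2134, or 1664 on the same scale over 645 cells.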

How the results depend on the processing

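No paired analysis was possible because each assay had 1 library and no replicate. The log2 ratio of the immune to the constitutive core mean (-0.07) was -0.25 with 500 bp windows, -0.66 with 250 bp, -0.16 at the start with most fragments, -0.51 in fragments under 150 bp, -0.17 in cells with 50 or more tags, -0.34 without shared windows and -0.88 in insertions within 250 bp of the RefSeq start, for 3 immune and 10 core genes that gave -1.16 at the gene start. That of the 19S (-0.08) was -0.0465 with 500 bp, -0.17 at the start with most fragments, -0.0249 in short fragments and -0.20 with 50 tags, and turned to 0.0651 without shared windows. Members past the fold for CD274 (6) were 2 when cells were split at the median and 3 with 400 fragments. They were 2 past 0.5 and 0 with 50 tags, where 363 cells left no member to compare and the sum of all members was at 0.0311. The share of all coding promoters is not given for these settings, nor for those of the gates below. These counts are thus no result about the members. With 50 tags, the sign turned at Psme2 for CD68 (0.10), Psmc3 for CD163 (-0.19), Psmd6 for CD201 (-0.0447), Psma4 for CD206 (0.38), and Psmg2 (0.0150) and Psme1 (-0.16) for CD274. For CD274, Psmb10 ranged from 0.15 to 0.61 and Psmd2 from -0.80 to -0.33 over 9 alternatives, each with an interval that left out 0 in 8. The gates gave 0 members past the fold with 500 bp windows or thinned cells, where Psma7 fell under the minimum of 200 fragments. Its ratio (-0.64) was between -0.68 and -0.60 in the 4 alternatives, each with an interval that left out 0. As Psma7 was compared only through its level in the MUL gate, that range supports no difference. Intervals left out 0 in 4 of 9 for Psmd7 and 2 of 9 for Psmd1 (CD163), and Psma3 in RNA-rich cells stayed past the fold in 1 of 4. Scaling by promoter fragments left 0.0121 for RNA-rich cells. Under 120 bp were 37.1% of member fragments (43.1% under 150 bp), and the median share of cells with a fragment fell from 26.1% to 16.7% after thinning. Before the start alone, 1 member held the nuclear respiratory factor motif, 0 the YY1 motif and 3 the interferon response element. Counts of 100 to 200 fragments a group limit single promoters.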
